A study of Homo sapiens with 24 samples.

Results

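Transcripts of 10 neuropeptide precursors, CCK, GAL, NPY, SST, TAC1, PENK, VGF, SCG2, CARTPT and ADCYAP1, were followed in 3D aggregates of LUHMES cells exposed to the complex I inhibitor rotenone. LUHMES is a conditionally immortalized human mesencephalic line that is differentiated into dopaminergic neurons. A probe was a member when its RefSeq accession belonged to one of these genes. Of the 10 genes, 9 had a probe under an accession that the gene table used here lists, and each of these had 1 probe printed as 1 spot, among 21622 features tested. PENK had no probe under its listed accession. The array carries 1 probe for NM_006211, which is by general knowledge a proenkephalin record, although no table used here pairs them, and it is called the NM_006211 probe throughout.

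The 24 arrays were 8 groups of 3 samples, taken from wells of aggregates kept on a shaker in medium with cAMP, GDNF, tetracycline and N2. All groups were differentiated the same way, and rotenone was given on day 7 as 50 nM for 12 h, 50 nM for 24 h or 100 nM for 24 h. Samples were collected at the end of exposure (day 8) or after washout and recovery (day 15), and each day had 1 group with DMSO, the solvent, in the amount of the 100 nM dose. The 12 h group was therefore compared with the same DMSO group as the 24 h groups, and the scan names of the DMSO arrays give 24 h. The scan name of replicate 1 of DMSO on day 15 gives 12 h without DMSO, so that its group rests on its sample label. All 3 comparisons of a day share its DMSO arrays. The p values rest on the spread between samples within groups, pooled over all 8 groups and not only those compared.

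A neuropeptide precursor is a secreted protein that is sorted into dense-core vesicles, cut by prohormone convertases and trimmed by carboxypeptidases before its peptides are released on stimulation. CCK encodes cholecystokinin, a peptide that many midbrain dopamine neurons release together with dopamine. GAL encodes galanin, SST somatostatin, NPY neuropeptide Y, TAC1 substance P and neurokinin A, CARTPT the CART peptides and ADCYAP1 the peptide PACAP. VGF and SCG2 (secretogranin II) are granin-like proteins, abundant cargo of the vesicles and sources of peptides themselves, and both genes are classical targets of cAMP signaling and neurotrophins.

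Of the 10 genes, 7 had promoter windows in the RefSeq table of GRCh38.p14 (CCK, NPY, SST, TAC1, VGF, CARTPT and ADCYAP1), 9 windows in all. The 250 bases before each start were searched on both strands for the cAMP response element TGACGTCA and the TATA box TATAAA, which do not overlap each other in the windows shown. The element was found in the windows of SST, VGF and CARTPT, starting 47, 79 and 143 bases before the start of the gene, and in 1.65% of all 35116 windows of this length. TATAAA was found in 10.7% of all windows. The windows of VGF and SST, which hold the element, and of CCK, which lack it, are shown as examples. They were chosen with the changes of these genes between the days known. Only exact matches were searched, and a link between the element and any change was not tested. Matches to either motif are in capitals, and all sequences run 5′ to 3′ on the strand of the gene.
VGF, chr7:101165570-101165819, minus strand: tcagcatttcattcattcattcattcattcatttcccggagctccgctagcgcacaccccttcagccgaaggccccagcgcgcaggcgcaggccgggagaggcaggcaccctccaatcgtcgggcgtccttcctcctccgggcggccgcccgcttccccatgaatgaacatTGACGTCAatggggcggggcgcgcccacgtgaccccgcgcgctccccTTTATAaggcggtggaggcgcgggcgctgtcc
SST, chr3:187670395-187670644, minus strand: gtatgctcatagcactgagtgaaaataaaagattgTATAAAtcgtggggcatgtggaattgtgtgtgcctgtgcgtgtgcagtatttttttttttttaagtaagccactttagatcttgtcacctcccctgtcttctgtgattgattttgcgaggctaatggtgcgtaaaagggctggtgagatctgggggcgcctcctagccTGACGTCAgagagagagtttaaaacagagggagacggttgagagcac
CCK, downstream start, chr3:42263948-42264197, minus strand: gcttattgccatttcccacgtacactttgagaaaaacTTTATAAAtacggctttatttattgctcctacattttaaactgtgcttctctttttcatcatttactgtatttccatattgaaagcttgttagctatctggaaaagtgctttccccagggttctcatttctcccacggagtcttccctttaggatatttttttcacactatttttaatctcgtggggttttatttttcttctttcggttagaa
CCK, upstream start, chr3:42266186-42266435, minus strand: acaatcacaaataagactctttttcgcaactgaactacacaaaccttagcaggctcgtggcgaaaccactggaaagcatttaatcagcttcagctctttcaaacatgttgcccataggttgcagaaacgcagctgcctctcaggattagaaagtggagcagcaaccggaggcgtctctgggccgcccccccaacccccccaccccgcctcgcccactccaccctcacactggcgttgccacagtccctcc
A match describes these letters only, and no binding was measured.

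Values below are normalized log2 signals, one per array, and changes are differences of group means on that scale with their standard error (SE). They come from 1 limma fit of all arrays with Benjamini-Hochberg adjustment over the 21622 features. A gene was called at a fold change over 1.5 with an adjusted p under 0.05. The scanner software marks each spot that is well above background. Where a probe lacked this mark on any of the 3 arrays of the dimmer group, the fold is a bound, which sets the brighter mean against the mean of the dimmer arrays. On each dimmer array this takes the higher of the probe's own signal and the lowest signal of any probe well above background. Where the probe's own signal was the higher on every dimmer array, the bound equals the fold of the means. It concerns dim signal only and leaves out the spread between arrays, so that "at least" is not a lower confidence limit. How the change of a gene depends on the treatment of background was examined for members only. Signals of different probes are not comparable with each other, so that heights are compared within a gene only.

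Signal over background differed between slides. Every slide carried 1 array of each group, samples of a replicate number shared a slide, and slide 1 was scanned on another day. On slide 1, 67.3% to 82.4% of spots were well above background, against 50.9% to 62.4% on slides 2 and 3. Of 8 neuronal markers, 8 were well above background on all DMSO arrays of both days. Of 10 dopaminergic markers, 8 were so in each DMSO group, SLC18A2 and ALDH1A1 being the exceptions, while TH (tyrosine hydroxylase) was 9.78 ± 0.09 (SD, n = 3) on day 8 and 6.84 ± 0.12 (SD, n = 3) on day 15. Between the DMSO groups, 3 of these 10 markers were called higher on day 15 and 2 lower, against 12.1% of all features called. Their median change was 0.12. None of the 3 astrocytic and 2 tested microglial markers was well above background on all 3 arrays of either DMSO group. In each DMSO group 2 of 2 glutamatergic, 2 of 3 oligodendrocytic, 1 of 3 GABAergic and 1 of 3 serotonergic markers were so. Of 3 noradrenergic markers, 2 were so on day 8 and 1 on day 15. Of 5 proliferation markers, 5 were so on day 8 and 2 on day 15.

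**Figure D1:**
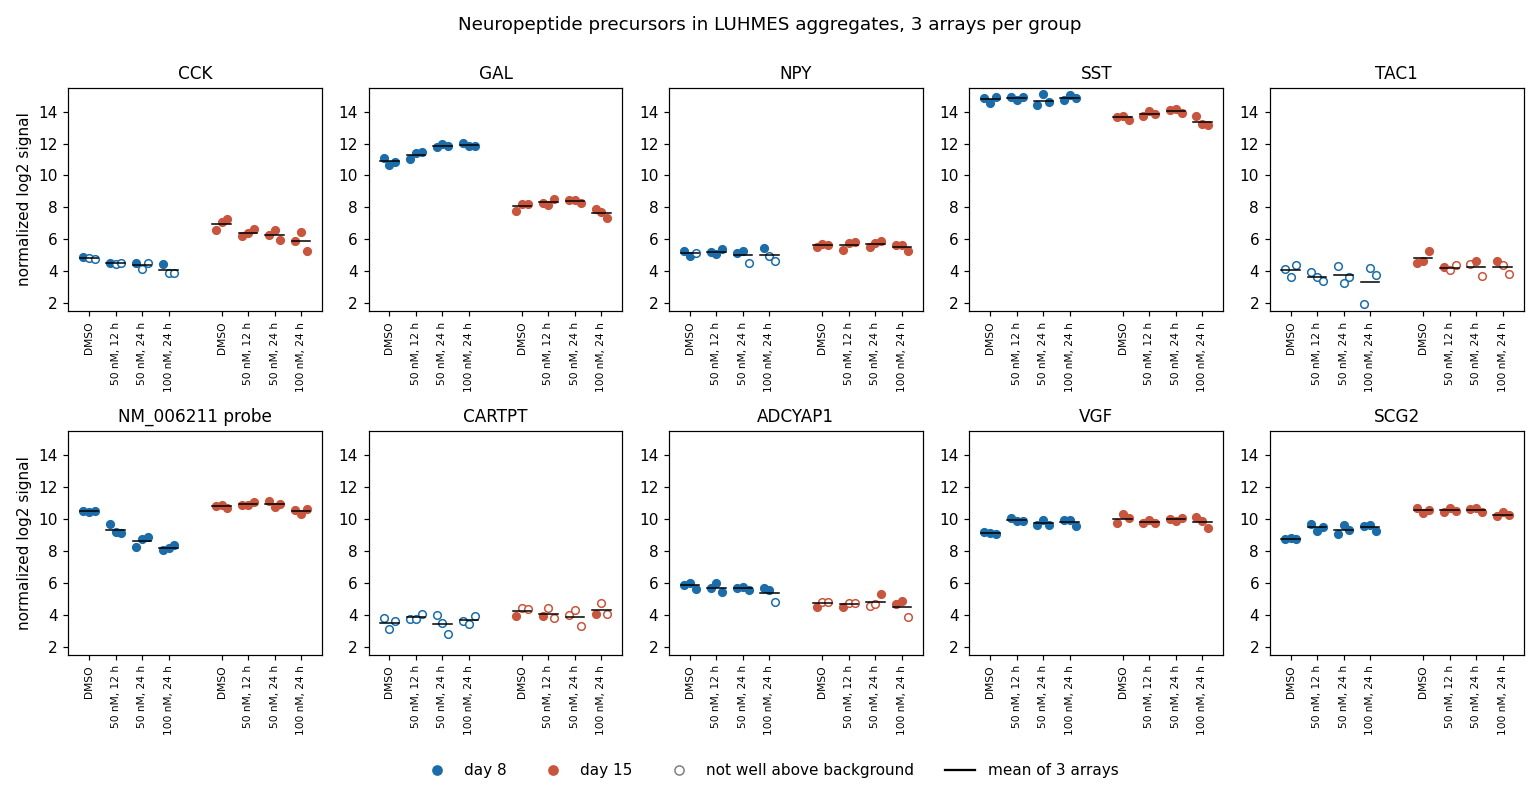
Normalized log2 signal of each array (points) and mean of 3 arrays (line) for the 10 precursors, by day and treatment. Filled points were well above background. The NM_006211 probe stepped down from 10.48 in DMSO to 8.20 with 100 nM on day 8 and lay between 10.31 and 11.16 on all day 15 arrays, while CCK was well above background on all 12 arrays of day 15 only.

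The first comparison was between days without rotenone, DMSO on day 15 against DMSO on day 8. Of the 10 precursors, 3 rose (CCK, SCG2 and VGF) and 3 fell (GAL, SST and ADCYAP1), against 12.1% of all features called, 5.75% higher and 6.36% lower. The DMSO groups of the 2 days were apart for all 10, against 39.9% of all features. The median change of the 10 was 0.63 against -0.03 over all features. Both values include NPY, TAC1 and CARTPT, which were not called and were not well above background on all arrays compared. In RNA of whole aggregates, fewer cells that express a gene and less RNA per cell cannot be told apart. All 5 proliferation markers tested were called lower on day 15 (median change -1.34), or 3 with the replicate number as a block, where CDK1 and MKI67 had adjusted p of 0.058 and 0.062. Of 3 noradrenergic markers, 1 was called lower and 2 were higher without a call (median change 0.04). The 1 called was DBH, the enzyme that makes noradrenaline, which fell at least 5.82-fold (adjusted p = 2.6e-10). Of 3 GABAergic markers, 1 was called lower and 1 was higher without a call (median change -0.24). The part of these markers in the results was not tested.

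CCK had signals of 4.91, 4.81 and 4.74 in DMSO on day 8, of which only that on slide 1 was well above background. On day 15 they were 6.57, 7.11 and 7.27, all well above background. All arrays of day 15 lay above all arrays of day 8. The rise was at least 4.48-fold (change 2.16, SE 0.25, adjusted p = 2.5e-06), and within slides 1, 2 and 3 the change was 1.66, 2.30 and 2.53. CCK was called in all 18 alternatives, but the size depended on the treatment of background, with a change of 1.18 at an offset of 50 in normexp and of 3.85 with the processed signal, so that the bound holds for the scale used here only.

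Galanin transcripts went the other way. GAL had signals of 11.11, 10.67 and 10.87 on day 8 and of 7.81, 8.19 and 8.21 on day 15. Each day 15 array was below each day 8 array, and the fall was 7.03-fold (change -2.81, SE 0.16, adjusted p = 1.7e-10). Over the 18 alternatives the change lay between -2.93 and -2.57.

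Somatostatin transcripts were at 14.87, 14.56 and 14.95 on day 8 and at 13.68, 13.73 and 13.51 on day 15. No array was marked as saturated for this probe. SST fell 2.23-fold (change -1.15, SE 0.17, adjusted p = 4.2e-05). ADCYAP1 was at 5.86, 6.01 and 5.64 on day 8 and at 4.49, 4.81 and 4.83 on day 15, where only the array of slide 1 was well above background. It fell at least 2.18-fold on this scale (change -1.13, SE 0.25, adjusted p = 0.0029). With an offset of 50 in normexp the change was -0.48, under the fold threshold, and the call was also lost without the batch correction (adjusted p = 0.067) and on slides 2 and 3 only (adjusted p = 0.12).

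Both granin-like precursors rose. SCG2 was at 8.76, 8.80 and 8.76 on day 8 and at 10.72, 10.36 and 10.54 on day 15, a 3.39-fold rise (change 1.76, SE 0.14, adjusted p = 3.7e-08). VGF was at 9.21, 9.13 and 9.08 on day 8 and at 9.75, 10.29 and 10.05 on day 15, a 1.85-fold rise (change 0.89, SE 0.16, adjusted p = 0.00038), which was not called without the batch correction (adjusted p = 0.077). For both genes all arrays of day 15 lay above all arrays of day 8.

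The other 4 precursors were not called between the days. NPY averaged 5.12 ± 0.15 on day 8, with 2 of 3 arrays well above background, and 5.63 ± 0.10 on day 15 with all 3 (SD, n = 3, adjusted p = 0.086). TAC1 was well above background on 0 of 3 arrays on day 8 and 3 of 3 on day 15, at 4.06 ± 0.37 and 4.82 ± 0.41 (SD, n = 3, adjusted p = 0.23). CARTPT was well above background on 0 and 1 of 3 arrays, at 3.50 ± 0.34 and 4.23 ± 0.26 (SD, n = 3, adjusted p = 0.080). The NM_006211 probe was bright on both days, at 10.48 ± 0.06 and 10.80 ± 0.08 (SD, n = 3), with a change of 0.32 (95% interval -0.01 to 0.66, adjusted p = 0.17).

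Genes that act on the precursors were read from lists of the same pathway. Of 18 tested granins and processing genes, 4 rose and 1 fell, against 12.1% of all features called, with a median change of 0.27. PCSK1, the prohormone convertase PC1/3, was at 4.73, 5.13 and 4.71 on day 8 and at 8.32, 8.05 and 8.26 on day 15, a rise of at least 10.2-fold (change 3.35, SE 0.18, adjusted p = 1.3e-10). PCSK2, the convertase PC2, was at 4.68, 4.75 and 4.26 on day 8 and at 6.49, 6.88 and 6.73 on day 15, a rise of at least 4.39-fold (change 2.13, SE 0.33, adjusted p = 8.7e-05). Each convertase was well above background on 2 of 3 arrays of day 8 and on all 3 of day 15. CPE (carboxypeptidase E, which trims the cut peptides) rose by 0.69 and CYB561 (a cytochrome of the vesicle membrane) by 0.60, while TPST1, which sulfates tyrosines as in CCK peptides, fell by 1.05 on the log2 scale.

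Of 45 other precursors tested, 2 rose and 5 fell, with a median change of 0.09, and the 7 called stand against the same 12.1%. Those that fell and were well above background on all arrays of both days were SCT (secretin, -0.81), UCN2 (urocortin 2, -0.80), NPPC (C-type natriuretic peptide, -0.72) and NMB (neuromedin B, -0.70). GHRH, at -0.79, was well above background on 1 of 3 arrays on each day, so that no fold is given. Of 17 receptors tested, 1 fell and none rose, against 12.1% of all features, and this was the somatostatin receptor SSTR2 (change -1.13, adjusted p = 0.00014). With the replicate number as a block SSTR5, well above background on 1 of 3 arrays of each day, was called too (adjusted p = 0.037). The CCK receptor CCKBR was at 4.85 ± 0.15 on day 8 and 4.65 ± 0.12 on day 15 (SD, n = 3), with 2 of 3 arrays well above background on each day.

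**Figure D2:**
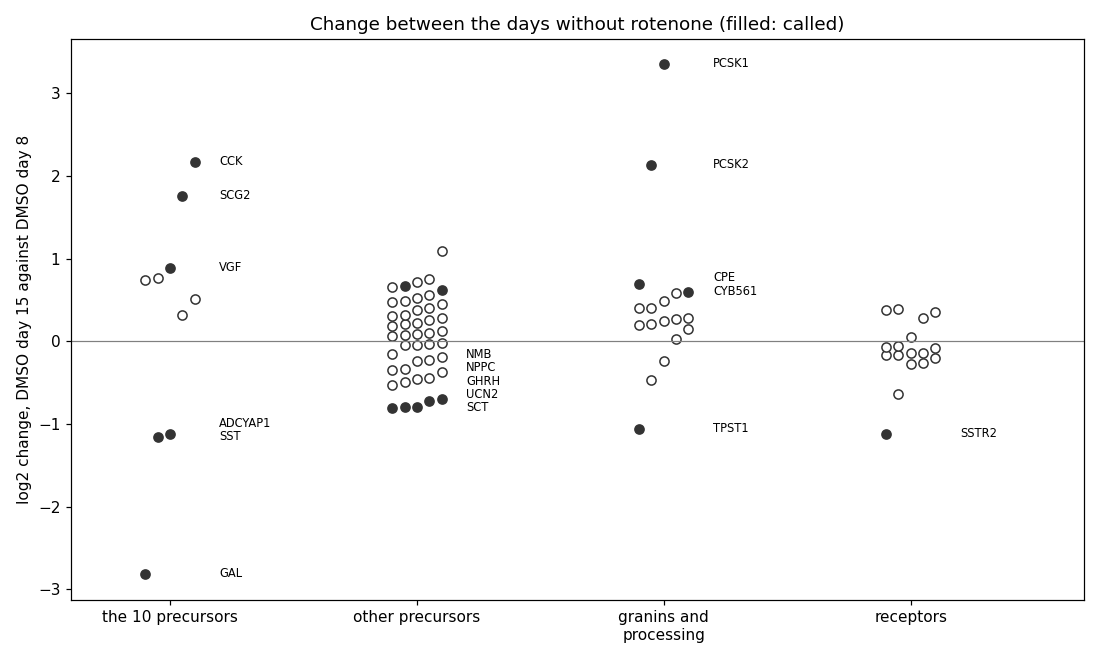
Log2 change between DMSO on day 15 and DMSO on day 8 (vertical axis) for each tested gene of 4 lists. Filled points were called, and labels name called genes described in the text. CCK, SCG2 and VGF are the filled points above 0 among the 10 precursors, and PCSK1 and PCSK2 have the highest values of the processing list.

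The next comparisons were of rotenone with DMSO on day 8, at the end of exposure. With 100 nM for 24 h, 4 of the 10 precursors were called, against 3.42% of all features. GAL, VGF and SCG2 rose (1.42% of all features), and the NM_006211 probe fell (2.01%). At an unadjusted p under 0.01, CCK was the fifth to pass, against 3.8% of all features, but not with the replicate number as a block. The study had already named CCK at this threshold from these same arrays, so that its pass follows in part from the choice of members. With 50 nM for 24 h, 3 were called (the NM_006211 probe, GAL and VGF), against 2.76% of all features. With 50 nM for 12 h, 3 were called (the NM_006211 probe, VGF and SCG2), against 1.74%. Arrays of rotenone and DMSO did not overlap for 5 of the 10 with 100 nM, 5 with 50 nM for 24 h and 4 with 50 nM for 12 h, against 28.3%, 28% and 23.4% of all features. The median change of the 10 was -0.02, -0.11 and 0.08 in the same order, against -0.02, -0.02 and -0.01 over all features. None of the 8 neuronal and none of the 10 dopaminergic markers was called by limma with 100 nM on day 8 (4 and 3 had an unadjusted p under 0.05). Of 3 noradrenergic markers, DBH was lower with 100 nM (change -0.78, adjusted p = 0.0021) and with 50 nM for 24 h (change -0.67, adjusted p = 0.0079). Of 3 GABAergic markers, SLC32A1, the vesicular GABA transporter, was higher with 50 nM for 24 h (change 0.92, adjusted p = 0.0034). Their part in the results was not tested.

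The NM_006211 probe had the largest change in each of these comparisons among the precursors that were well above background on all arrays compared. Its signal was 10.49, 10.41 and 10.53 in DMSO. It was 9.66, 9.17 and 9.13 after 12 h of 50 nM, 8.25, 8.74 and 8.88 after 24 h of 50 nM, and 8.04, 8.20 and 8.37 after 24 h of 100 nM. No rotenone array of day 8 reached the lowest DMSO array, and the arrays of 12 h did not overlap with those of 24 h at either dose.

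The fall against DMSO was 2.23-fold after 12 h of 50 nM (change -1.16, SE 0.16, adjusted p = 0.00028). It was 3.62-fold after 24 h of 50 nM (change -1.85, SE 0.16, adjusted p = 2.2e-06) and 4.83-fold after 24 h of 100 nM (change -2.27, SE 0.16, adjusted p = 8.7e-08). Within slides 1, 2 and 3 the change with 100 nM was -2.45, -2.21 and -2.16. The steps between rotenone groups were not called. In limma's comparison of the durations 0 of the 10 precursors were called (2 at an unadjusted p under 0.05), against 0.227% of all features, and in that of the doses 0 (1 at an unadjusted p under 0.05), against 0% of all features. From 12 h to 24 h of 50 nM the change was -0.70 (95% interval -1.03 to -0.36, adjusted p = 0.059), and without slide 1 in both groups it was -0.32. From 50 to 100 nM at 24 h it was -0.42 (95% interval -0.75 to -0.08, unadjusted p = 0.017), and the groups overlapped.

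GAL rose from 11.11, 10.67 and 10.87 in DMSO to 11.80, 11.96 and 11.84 with 50 nM for 24 h and to 12.04, 11.87 and 11.86 with 100 nM. All 24 h arrays were above all DMSO arrays. The rise was 1.98-fold with 50 nM (change 0.99, SE 0.16, adjusted p = 0.00052) and 2.06-fold with 100 nM (change 1.04, SE 0.16, adjusted p = 0.00024). After 12 h of 50 nM the signals were 11.05, 11.39 and 11.46, which overlapped with DMSO (change 0.42, adjusted p = 0.15). Within slides 1, 2 and 3 this change was -0.06, 0.71 and 0.59. The 2 doses at 24 h differed by 0.06 (95% interval -0.27 to 0.38).

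VGF was at 9.21, 9.13 and 9.08 in DMSO and at 10.07, 9.90 and 9.85 after 12 h of 50 nM. After 24 h it was at 9.60, 9.94 and 9.65 with 50 nM and at 9.96, 9.92 and 9.58 with 100 nM. All 9 rotenone arrays were above all DMSO arrays. The rise was 1.74-fold after 12 h (adjusted p = 0.0048), 1.51-fold after 24 h of 50 nM (adjusted p = 0.026) and 1.60-fold with 100 nM (adjusted p = 0.0093). The value with 50 nM for 24 h lay just past the fold threshold, and without the batch correction VGF was called in none of the 3 comparisons (adjusted p of 0.37 to 0.54). The call with 50 nM for 24 h was lost in 8 of 18 alternatives, among them leaving out replicate 2 or 3 of DMSO or replicate 2 of 50 nM. That with 100 nM was also lost on slides 2 and 3 only and without replicate 1 of 100 nM.

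SCG2 was at 8.76, 8.80 and 8.76 in DMSO and at 9.67, 9.24 and 9.52 after 12 h of 50 nM. After 24 h it was at 9.06, 9.60 and 9.29 with 50 nM and at 9.56, 9.61 and 9.27 with 100 nM. As for VGF, no rotenone array overlapped with DMSO. The rise was 1.62-fold after 12 h (adjusted p = 0.0066) and 1.63-fold with 100 nM (adjusted p = 0.0037). With 50 nM for 24 h the fold was 1.45, under the fold threshold, with an adjusted p of 0.026. Without replicate 1 of 50 nM for 12 h the 12 h value was just under the fold threshold (change 0.58), and on slides 2 and 3 only SCG2 was not called with 12 h or with 100 nM. VGF and SCG2 are measured on the same arrays and their comparisons share the DMSO group.

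CCK was near background on day 8. With 100 nM its signals were 4.45, 3.90 and 3.88, all below the DMSO arrays, and again only slide 1 was well above background. The change did not pass the adjusted threshold (adjusted p = 0.068, unadjusted p = 0.0074), and no fold is given because neither group was measured above background on all arrays. It was called with probes well above background only (adjusted p = 0.042), in the authors' table (adjusted p = 0.021) and without replicate 1 of 100 nM (adjusted p = 0.041). In 10 of 18 alternatives it missed the unadjusted threshold too, among them the replicate block (adjusted p = 0.084) and leaving out any 1 of the DMSO arrays or replicate 2 or 3 of 100 nM. Its means were 4.49 ± 0.04 after 12 h and 4.39 ± 0.20 after 24 h of 50 nM (SD, n = 3), with unadjusted p of 0.19 and 0.099.

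SST was bright and was not called with rotenone on day 8. Its change was 0.07 after 12 h and -0.10 after 24 h of 50 nM, and 0.08 with 100 nM (95% interval -0.27 to 0.43). ADCYAP1 changed by -0.15, -0.17 and -0.49 in the same order, with adjusted p of 0.30 to 0.88, and 1 of its 100 nM arrays was not well above background. NPY was between 4.54 and 5.46 on all 12 arrays of day 8, and the rotenone groups overlapped with DMSO. TAC1 and CARTPT were well above background on 0 of the 12 arrays of day 8.

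**Figure D3:**
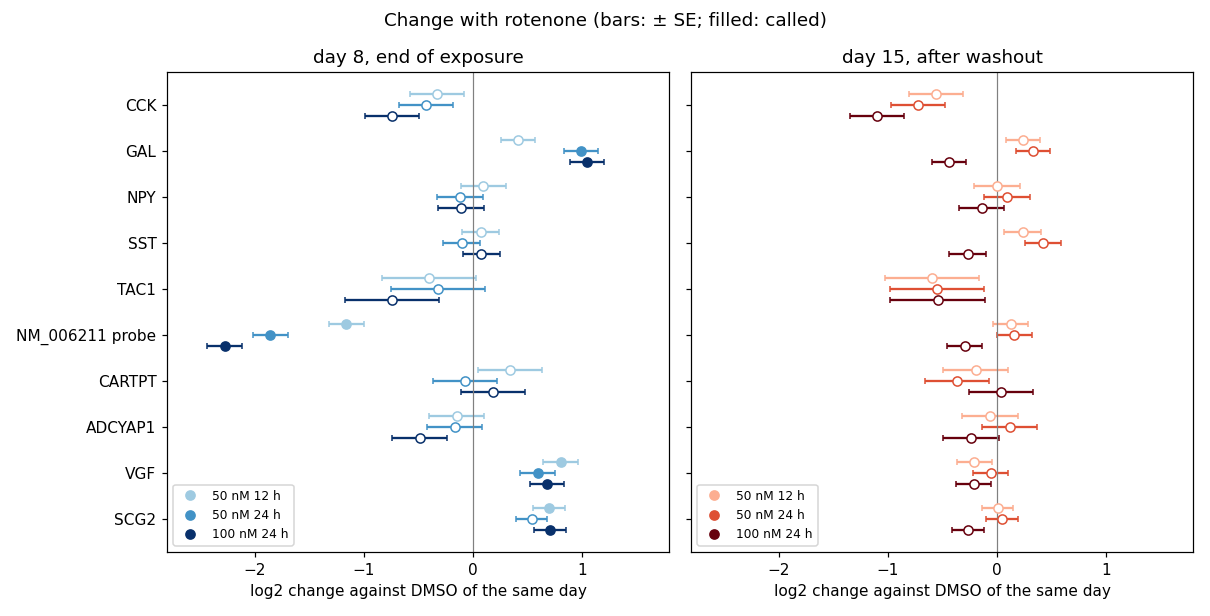
Log2 change against DMSO of the same day (horizontal axis) with its SE for the 10 precursors, by dose and duration, on day 8 (left) and day 15 (right). Filled points were called. All filled points are on day 8, where the NM_006211 probe changed by -1.16, -1.85 and -2.27 and GAL, VGF and SCG2 lie to the right of 0.

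Other genes of the pathway were called with rotenone on day 8. Of 45 other precursors, 2 rose with 100 nM, 3 rose with 50 nM for 24 h and 0 were called after 12 h (1 at an unadjusted p under 0.05), and none fell in any of these, against 3.42%, 2.76% and 1.74% of all features called. NPPC rose by 1.03 with 100 nM (adjusted p = 0.0068), from 6.07 ± 0.11 to 7.09 ± 0.33 (SD, n = 3). TRH, the precursor of thyrotropin-releasing hormone, rose by 0.59 with 100 nM and by 0.61 with 50 nM for 24 h (adjusted p = 0.0054 and 0.0051). SCT rose by 0.75 with 50 nM for 24 h (adjusted p = 0.046), and with the replicate number as a block its adjusted p was 0.057.

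Of the 18 processing genes, 3 were called with 50 nM for 24 h and 1 after 12 h, against the same shares of all features, and 0 by limma with 100 nM (5 had an unadjusted p under 0.05), with a median change of -0.06. QPCT, which forms the pyroglutamate end of peptides such as TRH, was just under the fold threshold (change 0.58, adjusted p = 0.0019) and just past it with the replicate number as a block (change 0.59, adjusted p = 0.0040). With 50 nM, PCSK1 rose at least 1.91-fold after 12 h (adjusted p = 0.0041) and at least 1.61-fold after 24 h (adjusted p = 0.024), and with 100 nM its signal was 5.19 ± 0.23 against 4.86 ± 0.24 in DMSO (SD, n = 3, adjusted p = 0.34). With 50 nM for 24 h, QPCT rose by 0.59 (adjusted p = 0.0022). PCSK1N, which encodes the PC1/3 inhibitor proSAAS, fell by 0.62 on the log2 scale in the same comparison (adjusted p = 0.030).

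Of 17 receptors, 2 were called with 100 nM, 1 with 50 nM for 24 h and 2 with 50 nM for 12 h, all lower, against 3.42%, 2.76% and 1.74% of all features. GALR1, a galanin receptor, was at 8.93, 8.83 and 8.62 in DMSO and at 7.95, 8.43 and 8.17 with 100 nM, so that the groups did not overlap. It fell by 0.82 after 12 h of 50 nM, by 0.68 after 24 h of 50 nM and by 0.61 with 100 nM on the log2 scale (adjusted p = 0.00044, 0.0014 and 0.0027). GALR1 was thus called lower in all 3 comparisons, while GAL was not called after 12 h of 50 nM. Between the doses and between the durations limma called 0 of the 17 receptors, against 0% and 0.227% of all features. A relation of GALR1 to GAL was not tested. NPY5R, a receptor of neuropeptide Y, fell by 0.76 with 100 nM and by 0.70 after 12 h of 50 nM on the log2 scale (adjusted p = 0.0035 and 0.011).

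On day 15, after washout and recovery, 0 of the 10 precursors were called in any of the 3 comparisons with DMSO. In each of these 0% of all features passed limma's adjusted threshold, and 2 of the 10 had an unadjusted p under 0.05 with 100 nM, 3 with 50 nM for 24 h and 1 with 50 nM for 12 h. At a fold change over 1.5 with an unadjusted p under 0.01, CCK alone of the 10 passed with 100 nM and with 50 nM for 24 h, where 0.768% and 0.254% of all features did, and 0 of the 10 passed with 50 nM for 12 h, where 0.449% did. The pass with 50 nM for 24 h was lost in 10 of 18 alternatives, among them the replicate block, no batch correction and leaving out replicate 2 or 3 of DMSO or replicate 1 or 3 of 50 nM. The pass with 100 nM was lost in 2, the processed signal and the fit of only the groups compared. The study had named CCK at this threshold with 100 nM on both days from these same arrays. This pass therefore follows in part from the choice of members and is no independent support.

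CCK was at 6.57, 7.11 and 7.27 in DMSO and at 5.89, 6.47 and 5.28 with 100 nM, with no overlap. CCK and the NM_006211 probe were the 2 of the 10 precursors without overlap with 100 nM on day 15, against 7.83% of all features. CCK was at 6.25, 6.58 and 5.94 with 50 nM for 24 h and at 6.21, 6.41 and 6.65 with 50 nM for 12 h, which both overlapped with DMSO. The change with 100 nM was -1.10 (95% interval -1.62 to -0.58, unadjusted p = 0.00028, adjusted p = 0.29). With 50 nM it was -0.72 after 24 h (unadjusted p = 0.0086) and -0.56 after 12 h (unadjusted p = 0.035), and neither was called.

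CCK was lower with rotenone on each of the 3 slides in all 3 comparisons, but slide 3 gave the largest values of the 24 h groups. With 100 nM the change within slides 1, 2 and 3 was -0.68, -0.63 and -1.99. The slide 3 array of 100 nM stood apart, since its median was 6.62 in the authors' table against 6.73 to 6.83 on the other arrays and all 10 precursors were lower on it than on the DMSO array of slide 3, with changes of -1.46 for TAC1 and -0.95 for ADCYAP1. The same array had the largest share of spots well above background on slide 3, 62.4% against 50.9% to 56.6% on the others. Without that array the change of CCK was -0.81 (adjusted p = 0.93), still at an unadjusted p under 0.01. Leaving out single arrays moved it between -1.46 and -0.81 and its adjusted p between 0.025 and 0.93, and without replicate 2 of 100 nM, the highest of its group, CCK was called. The DMSO array with the doubtful scan name is replicate 1, the lowest of its group.

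None of the 4 precursors called on day 8 was called on day 15. The NM_006211 probe was at 10.84, 10.85 and 10.70 in DMSO and at 10.58, 10.31 and 10.62 after 100 nM, without overlap and with a change of -0.30 (95% interval -0.63 to 0.04, adjusted p = 0.72). After 50 nM it averaged 10.93 ± 0.12 (12 h) and 10.96 ± 0.19 (24 h, SD, n = 3). VGF changed by -0.21 and SCG2 by -0.26 with 100 nM, with adjusted p of 0.78 and 0.72. GAL was at 7.88, 7.69 and 7.32 with 100 nM against 7.81, 8.19 and 8.21 in DMSO, which overlapped (change -0.44, 95% interval -0.77 to -0.11, adjusted p = 0.63). GAL also passed a fold change over 1.5 with an unadjusted p under 0.01 on slides 2 and 3 only and without replicate 1 of DMSO or of 100 nM. After 50 nM for 24 h GAL was instead at 8.49, 8.44 and 8.26, each above DMSO (change 0.33, unadjusted p = 0.048). SST was at 14.08, 14.18 and 13.92 in the same group, also above DMSO (change 0.42, unadjusted p = 0.021), and neither was called.

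The difference between the days was tested directly for 100 nM, as the change on day 15 minus the change on day 8. It was called for 4 of the 10 precursors, against 1.86% of all features. The difference was 1.98 for the NM_006211 probe (SE 0.23, adjusted p = 0.00011), -1.48 for GAL (SE 0.22, adjusted p = 0.0011), -0.97 for SCG2 (SE 0.20, adjusted p = 0.014) and -0.89 for VGF (SE 0.22, adjusted p = 0.041). For CCK it was -0.36 (95% interval -1.09 to 0.37), so that the test did not separate its changes on the 2 days. For GALR1 it was 1.17 (adjusted p = 0.00097), from a change of -0.61 on day 8 and of 0.56 on day 15.

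**Figure D4:**
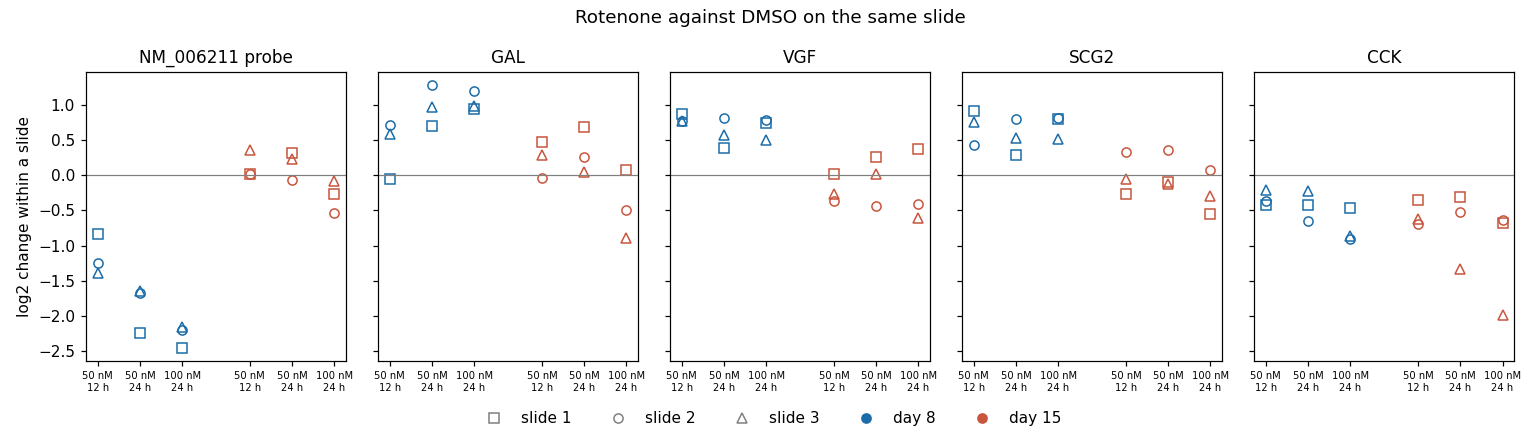
Log2 change of each rotenone array against the DMSO array of the same slide (vertical axis) for 5 precursors, by dose and duration on day 8 and day 15. On day 8 the NM_006211 probe fell on all 3 slides in each comparison and VGF and SCG2 rose on all 3, while the day 15 values of CCK are all below 0 with slide 3 at -1.99 for 100 nM.

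The genes with the pattern most like that of CCK were taken as those with the highest Pearson correlation with CCK over the 24 arrays, among 15829 genes well above background on enough arrays. These were KCNK10 (r = 0.971), LINC00348 (0.968), PLPPR5 (0.968), TYRP1 (0.966) and MADCAM1 (0.962). The arrays share groups, days and slides, so that these values describe the pattern and carry no test. The genes were chosen by likeness to CCK on these same arrays, so that the changes below follow in part from the choice. All 5 were higher on day 15 in DMSO, with changes from 1.48 (TYRP1) to 3.06 (MADCAM1). With 100 nM on day 15 their changes were between -0.80 and -0.36, with adjusted p of 0.37 to 0.72.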

How the data were processed

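RNA of 24 samples was measured on single-color arrays. The authors deposited the intensity of each spot from the scanner (Feature Extraction 11.5.1.1 on slides 1 and 3 and 12.0.0.7 on slide 2, per the file headers) and a table of normalized log2 values.

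Following the methods, background was removed from the median intensity by normexp without an offset (limma 3.58.1, R 4.3.3). Quantile normalization and parametric ComBat for slide 1, with groups as covariates, came next. ComBat was written out and tested on simulated data. It spends no degrees of freedom in the later fit, which makes p values somewhat small. A spot was kept when its signal exceeded 1.1 times the negative controls' 95th percentile on at least 3 arrays. Flagged values were dropped, and spots and probes of a gene were averaged. Accessions gave a RefSeq gene to 30275 of 50599 probes. Another 405 NM accessions were kept under their own name, a choice made after 1 member had no match. limma's lmFit and eBayes (two-sided, 16 residual and 2.37 prior degrees of freedom) fitted all arrays. A second threshold was a fold change over 1.5 with an unadjusted p under 0.01, as in the study's results, whereas its methods give 0.05 for the gene sets of day 15.

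Members and lists were chosen with earlier results of these data known. The text names all members, up to 5 called genes per list with the largest change between the days and on day 8, and the 5 genes most correlated with CCK. TH, SLC18A2, ALDH1A1, DBH, SLC32A1, CDK1, MKI67, CCKBR and SSTR5 and the values of QPCT with 100 nM were named after they were seen. Before ComBat, arrays of a replicate number, which share a slide, deviated together (correlation of deviations 0.171 or more, median 0.461, in 84 pairs, against a median of -0.353 in 168 other pairs). Alternatives were other signals, scalings, filters, batch corrections, left-out arrays and the authors' table, in which 19936 of 21733 rows had a gene. Its values correlated with those used here (median r 0.974 per gene, at least 0.977 for members), its column medians were 6.62 to 6.83, and its centring is not stated. The number of arrays limits the precision. Figures used matplotlib 3.10.9 under Python 3.11.15.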

Additional observations from a re-analysis of the deposited data

Results flagged for a closer look

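The change with 100 nM rotenone differed between day 8 and day 15 for 4 of the 10 precursors by limma's test of the difference itself. The value, the change on day 15 minus that on day 8, was 1.98 for the NM_006211 probe (adjusted p = 0.00011), -1.48 for GAL (adjusted p = 0.0011), -0.97 for SCG2 (adjusted p = 0.014) and -0.89 for VGF (adjusted p = 0.041). The values for the NM_006211 probe and GAL kept their call in all 24 alternatives, those for SCG2 in 21 and those for VGF in 13 of 24. The DMSO groups of the 2 days also differed for GAL, SCG2 and VGF, and both days' rotenone arrays were compared with the DMSO arrays of their own day. No group of 3 arrays was tested for outliers.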

How the results depend on the processing

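No change reversed. For the 24 changes of precursors past a threshold, 393 recomputed values kept their call and 63 did not. Slides 2 and 3 only (2 arrays per group) gave 2 precursors called with 100 nM on day 8 instead of 4 and 1 after 12 h of 50 nM instead of 3. Probes well above background and the authors' table gave 5 with 100 nM on day 8, CCK among them. The fit of only the groups compared gave 0 after 12 h instead of 3. For the difference between days, no ComBat, slides 2 and 3 only and the fit of only the groups compared each gave 2 instead of 4, the NM_006211 probe and GAL. VGF was not called without ComBat in any comparison. For 24 h against 12 h of 50 nM, 1 precursor (the NM_006211 probe) was called instead of 0 with the processed signal, an offset of 50 in normexp, arrays scaled to their 75th percentile, probes well above background and the authors' table. At unadjusted p under 0.01, no ComBat gave 3 instead of 5 with 100 nM on day 8. On day 15 the processed signal and the fit of only the groups compared gave 0 instead of 1, and slides 2 and 3 only gave 2 (CCK and GAL). The cause was not tested.

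Leaving out single arrays gave 6 called between the days, 4 with 100 nM, 2 to 4 with 50 nM for 24 h and 2 to 3 for 12 h on day 8, 0 to 1 with 100 nM on day 15 and 0 with 50 nM, 3 to 4 for the difference between days, 0 for the doses and 0 to 1 for the durations. At unadjusted p under 0.01 it gave 4 to 5 on day 8 and 1 to 2 on day 15. Without replicate 2 of 100 nM on day 15, CCK was called. Without replicate 3 of 50 nM for 12 h or for 24 h on day 8, the NM_006211 probe was called between the durations. The processed signal called 6 precursors up and 3 down between the days instead of 3 and 3, with the median of all features at 0.16. With the replicate block in place of ComBat, 6, 4, 3, 3, 0, 0 and 0 precursors were called in the comparisons with the 2 DMSO groups and 4 for the difference between days, and the block changed no call of a precursor at the adjusted threshold. At unadjusted p under 0.01 it ended the pass of CCK with 100 nM on day 8 and with 50 nM for 24 h on day 15. Naming genes by the table only, chosen after seeing the data, changed no call. CCK on day 8, NPY, TAC1, CARTPT and ADCYAP1 on day 15 are limited by signal over background.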
